A study of Danio rerio and Garra andruzzii with 24 samples.

Results

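PAC-2 is a cell line from zebrafish embryos, and its own clock is set by light. In these cells, 7 genes had more transcript after 3 h of blue light than both before the light and after 6 h. They are zgc:100920, zgc:103625, lepr, exosc5, hsf2, sh3glb2b and tac3b. They were found among 31901 annotated genes of a count table of 35886 rows by 3 bounds on CPM (the count of a gene scaled to a library total of 1000000). The mean at 3 h had to be at least 2 CPM and at least 1.5 times the means at 0 h and at 6 h, and each 3 h library had to lie above every 0 h and 6 h library. Genes named per or cry were left out, which removed 1 gene, cry1ab. The genes were thus chosen by their CPM at 0 h, 3 h and 6 h in these libraries, and their height at 3 h is given as a description and not as a result.

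The cells had been kept in darkness for 2 days and were sampled after 0 h (darkness only), 1 h, 3 h and 6 h of blue light (468 nm), with 3 RNA-seq libraries for each time. The same times were sampled in EPA cells, from the blind cavefish Phreatichthys andruzzii, named Garra andruzzii in the labels, so that the series has 24 libraries. No dark library was made after 0 h, and hours of light and hours elapsed cannot be told apart. Separate cultures behind the libraries of 1 time are not stated, and a p-value here may therefore reflect technical spread alone.

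Light reaches the transcriptome of fish cells directly, since zebrafish tissues and cell lines carry their own photoreceptors. Genes that answer light through D-box elements, such as the Period and cryptochrome genes, feed the circadian clock and DNA repair. A gene that is high at an intermediate time and back at its dark level later has a transient profile, as is known for many immediate early and stress genes. The 7 genes do not belong to 1 known pathway. They encode a heat-shock transcription factor, a subunit of the RNA exosome, a cytokine-type receptor, a neuropeptide precursor, an endophilin and 2 less known proteins.

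Library totals ranged from 20037859 to 32521127 counts in the PAC-2 genome table. Of 10 fibroblast markers, 8 exceeded 1 TPM at 0 h, and the 10 summed to 1298 to 1444 TPM at that time. None of 6 neural and none of 5 blood and immune markers exceeded 1 TPM at 0 h. Of 6 epidermal markers 3 did, with a summed level of 890 to 966 TPM at 3 h and 1042 to 1197 TPM at 0 h. So did 2 of 6 muscle, 1 of 4 pigment and 1 of 4 endothelial markers, and the pigment markers summed to 195 to 198 TPM at 3 h and 174 to 197 TPM at 0 h. The endothelial markers summed to 16.0 to 18.5 TPM at 3 h, 17.1 to 25.1 TPM at 0 h and 33.3 to 39.4 TPM at 6 h. The 3 h libraries stood apart in composition. Ribosomal protein genes took 11.07 to 11.9% of their counts, against 9.23 to 10.2% at 0 h and 9.22 to 9.35% at 6 h, and the TMM normalization factors of edgeR were 0.930 to 0.946 at 3 h, 0.971 to 1.04 at 0 h and 1.04 to 1.05 at 6 h. Their part in the profiles below was not tested.

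hsf2 (ENSDARG00000053097) had the most even profile. It encodes heat shock factor 2, a transcription factor of the heat-shock family, with the HSF DNA-binding domain in the annotation, and lies on chromosome 20 at 40475576 to 40487284 of GRCz11, minus strand. It had 24.8, 23.4 and 23.1 CPM at 0 h, 25.9, 24.3 and 24.0 CPM at 1 h, 37.4, 38.6 and 39.0 CPM at 3 h and 24.3, 23.3 and 23.1 CPM at 6 h. All 3 h libraries lay at least 1.504 times above the highest 0 h or 6 h library, and the other 3 times overlapped. The biological coefficient of variation of hsf2 was 0.0495, against a median of 0.102 over all genes tested.

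exosc5 (ENSDARG00000040557) encodes a subunit of the RNA exosome, the complex that trims and degrades RNA from its 3′ end. It is on chromosome 18 at 36060295 to 36066087, minus strand. Its libraries had 10.1, 18.0 and 10.8 CPM at 0 h, 9.03, 10.6 and 15.9 CPM at 1 h, 18.05, 20.3 and 33.7 CPM at 3 h and 8.69, 11.7 and 17.0 CPM at 6 h. The lowest 3 h library was 1.0002 times the highest of the 0 h and 6 h libraries, and without 3 h replicate 3 exosc5 no longer met the bounds. Its coefficient of variation was 0.314.

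lepr (ENSDARG00000070961) encodes the leptin receptor, a cytokine-type receptor that signals through Jak and Stat proteins. It is on chromosome 6 at 31184058 to 31233696, minus strand. It had 1.797, 2.299 and 1.697 CPM at 0 h, 1.74, 2.202 and 2.88 CPM at 1 h, 4.37, 5.33 and 4.35 CPM at 3 h and 1.86, 3.41 and 2.26 CPM at 6 h. The highest 6 h library came from replicate 2 and was still below every 3 h library.

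tac3b (ENSDARG00000097596), on chromosome 6 at 39184236 to 39187657, plus strand, encodes a tachykinin precursor of the neurokinin B type, a peptide family best known from neurons. It had 0.650, 1.17 and 1.298 CPM at 0 h, 1.18, 1.53 and 1.27 CPM at 1 h, 2.18, 2.42 and 2.02 CPM at 3 h and 1.07, 1.81 and 1.43 CPM at 6 h. These are 67 counts over the 0 h libraries and 181 over the 3 h libraries, so counting error is large for this gene.

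sh3glb2b (ENSDARG00000035470) encodes an endophilin B, a BAR-domain protein that binds and bends membranes. It is on chromosome 5 at 31640881 to 31689911, minus strand. It had 4.74, 7.82 and 5.69 CPM at 0 h, 9.74, 9.38 and 9.27 CPM at 1 h, 9.66, 10.6 and 9.07 CPM at 3 h and 7.59, 5.27 and 5.33 CPM at 6 h. The 1 h libraries were already all above the 0 h libraries and overlapped the 3 h libraries. At 1 h its mean had covered 91.4% of the way between the means at 0 h and 3 h, against 24.5% or less for the other 6 genes.

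zgc:100920 (ENSDARG00000042961) had the largest ratio, 3.93 times the larger of its 0 h and 6 h means. Reference tables name it nkain5 or NKAIN4, names of a family of proteins that interact with the sodium pump. It is on chromosome 8 at 23093155 to 23103547, plus strand. It had 2.56, 2.25 and 2.79 CPM at 0 h, 1.74, 2.27 and 2.01 CPM at 1 h, 9.19, 13.5 and 8.14 CPM at 3 h and 1.82, 4.96 and 1.04 CPM at 6 h. Its annotated span lies inside that of ythdf1 on the same strand, a reader of methylated RNA with a mean of 49.8 ± 3.95 CPM at 3 h and 58.9 ± 2.89 CPM at 0 h (SD, n = 3 each), and how the authors' counting split reads between them is not given in the sources used here.

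zgc:103625 (ENSDARG00000038770; RefSeq synonym mettl26b) is on chromosome 3 at 50069204 to 50075190, plus strand. It had 0.994, 1.52 and 1.098 CPM at 0 h, 1.46, 0.798 and 1.61 CPM at 1 h, 1.84, 2.51 and 2.62 CPM at 3 h and 1.07, 0.993 and 0.911 CPM at 6 h. Its 1 h libraries lay below all 3 h libraries, and its 6 h libraries were close together.

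**Figure D1:**
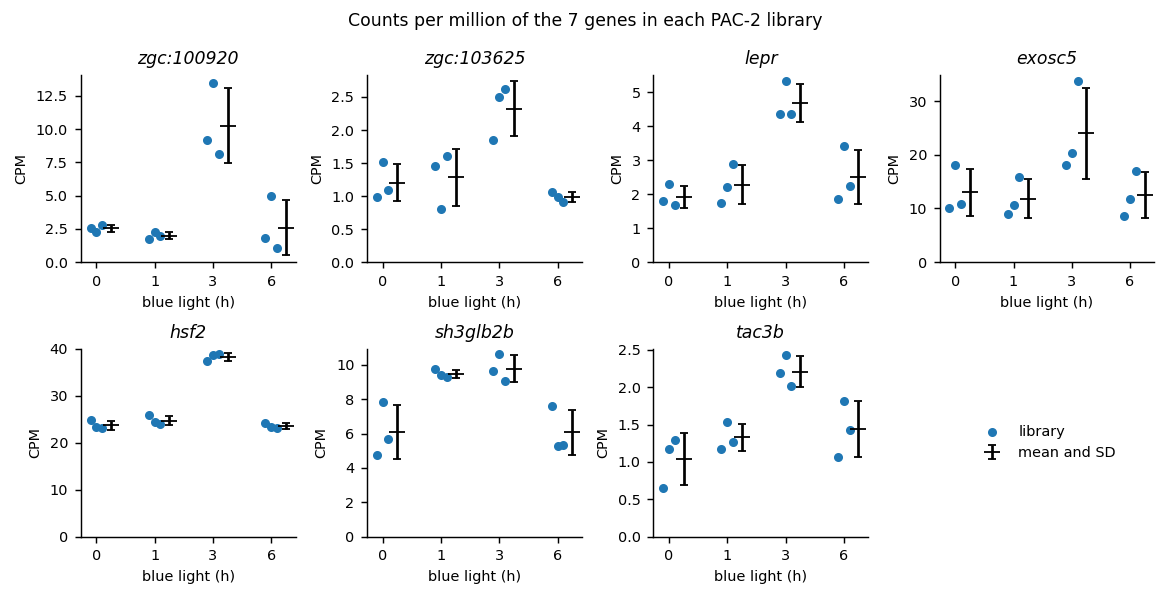
CPM of the 7 genes (vertical axes, each with its own scale) in each PAC-2 library against hours of blue light (horizontal axes); points are libraries and black marks the mean with its SD. hsf2 shows a tight peak at 37.4 to 39.0 CPM at 3 h, whereas sh3glb2b is as high at 1 h as at 3 h.

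Per length of transcript, in FPKM as the authors give it, the mean levels at 3 h were 30.3 for exosc5, 18.1 for hsf2, 7.22 for zgc:100920, 2.81 for tac3b, 1.67 for sh3glb2b, 1.48 for zgc:103625 and 0.820 for lepr. The genes near the 1.5-fold bound were tac3b at 1.54, sh3glb2b at 1.61 and hsf2 at 1.61 inside it, and atp5if1b at 1.49, rpl38 at 1.47 and fosab at 1.45 outside it. The excluded cryptochrome gene cry1ab had means of 7.77, 9.49, 19.7 and 8.78 CPM in the order of the times, a ratio of 2.24. With TMM-normalized library sizes in place of totals, 20 genes met the bounds, all 7 among them.

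The contrasts that chose the genes gave the following values in edgeR's quasi-likelihood test with all 12 libraries. A gene is called here at a log2 fold change of at least 1 in size and a Benjamini-Hochberg adjusted p under 0.001. Against 0 h, 1 of the 7 genes was called higher at 3 h, lepr, at a log2 fold change of 1.38 ± 0.24 (SE, adjusted p = 0.000675), where 0.705% of 18017 tested genes were. The log2 fold changes of all 7 lay between 0.79 and 2.12. Against 3 h, 1 of the 7 was called lower at 6 h, zgc:103625, at -1.38 ± 0.27 (adjusted p = 0.000856), where 0.0999% of all were, and the 7 lay between -2.15 and -0.79. The call of lepr was lost without any 1 of 8 libraries (each at 0 h and at 3 h, 1 h replicate 2 and 6 h replicate 3), with an adjusted p of up to 0.00508, and that of zgc:103625 without any 1 of 8 libraries (each at 3 h and at 6 h, 0 h replicate 2 and 1 h replicate 1), with up to 0.00492. Nothing is read from these counts, since the bounds used the same libraries. exosc5 missed even an adjusted p of 0.05 at 3 h against 0 h in edgeR (0.99 ± 0.38, adjusted p = 0.101). It passed 0.05 in 2 of 19 settings, 1 of them DESeq2 (adjusted p = 0.0448).

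The 1 h libraries were not used by the bounds, although the 0 h libraries were. No gene of the 7 was called at 1 h against 0 h by edgeR or by DESeq2, where 0.0222% of all tested genes were called higher by edgeR, and 1 of the 7 had an unadjusted p under 0.05, as did 6.02% of all tested genes. That gene was sh3glb2b, at a log2 fold change of 0.64 ± 0.17 (SE, 95% interval 0.25 to 1.03, adjusted p = 0.34). It was the 1 gene of the 7 whose 1 h libraries were all above the 0 h libraries, which held for 5.60% of all tested genes. The other 6 genes lay between -0.33 and 0.37 (adjusted p of 0.933 or more), with the interval of hsf2 reaching from -0.08 to 0.18.

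The values at 6 h against 0 h are also a description, since the bounds hold both times below the same 3 h values and so leave out genes that are high at 6 h. None of the 7 genes was called by edgeR or DESeq2, where 1.54% of all tested genes were called in either direction by edgeR, and nothing is read from that. Their log2 fold changes lay between -0.32 for zgc:103625 and 0.42 for tac3b. For hsf2 the 95% interval was narrow, from -0.20 to 0.06. For zgc:100920 it was wide, from -1.13 to 1.07. Without 6 h replicate 2 its log2 fold change was -0.85 (edgeR adjusted p = 0.0413), which is no call. This was the only 1 of 19 settings with an adjusted p under 0.05.

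**Figure D2:**
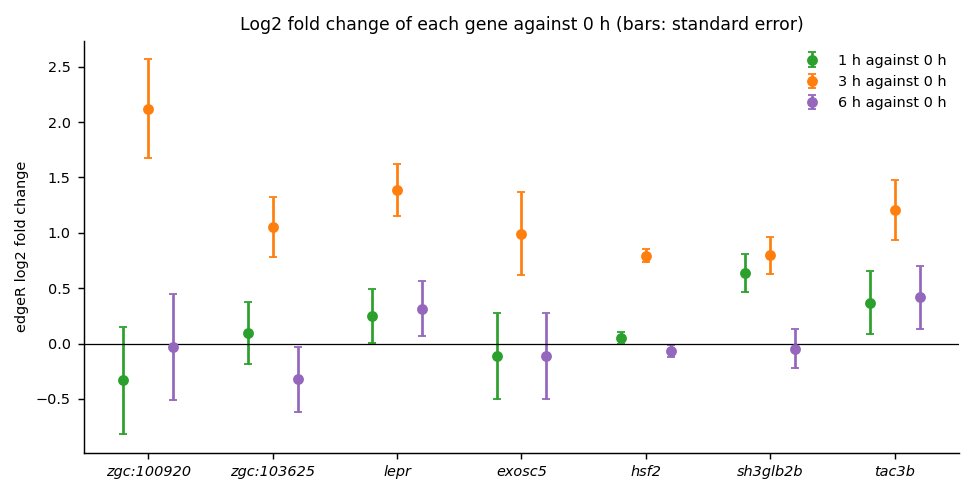
Log2 fold change of each of the 7 genes against 0 h from edgeR (vertical axis), for each light exposure, with standard errors as bars. The 6 h values lie between -0.32 and 0.42, and sh3glb2b has the highest 1 h value, 0.64.

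Fold changes at 3 h and at 6 h varied with gene length. Over all tested genes, the median log2 fold change at 3 h against 0 h was 0.09 for the 2172 genes under 1000 bases and -0.17 for the 749 genes of 8000 bases or more. At 6 h against 3 h the same medians were -0.14 and 0.29. At 6 h against 0 h they were -0.06 and 0.14, a slope opposite to that at 3 h against 0 h. The 7 genes ran from 830 bases (tac3b) to 6174 bases (sh3glb2b), with none of 8000 bases or more. Their median length was 1656 bases, against 2432 bases for all tested genes. Of the 7, 2 were under 1000 bases and 2 from 1000 to below 2000 bases. The medians of the second class were 0.06 at 3 h against 0 h and -0.13 at 6 h against 3 h. Another 2, lepr and sh3glb2b, fell in the class from 4000 to below 8000 bases, whose medians were -0.07 and 0.11. The part of gene length in the profiles was not tested. With the mirrored bounds and no gene left out by name, 520 genes were lowest at 3 h, against 8 highest. Both counts use CPM by library totals. With TMM-normalized library sizes 20 genes were highest, Period and cryptochrome genes left out, and the mirrored count with those sizes is not given here.

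**Figure D3:**
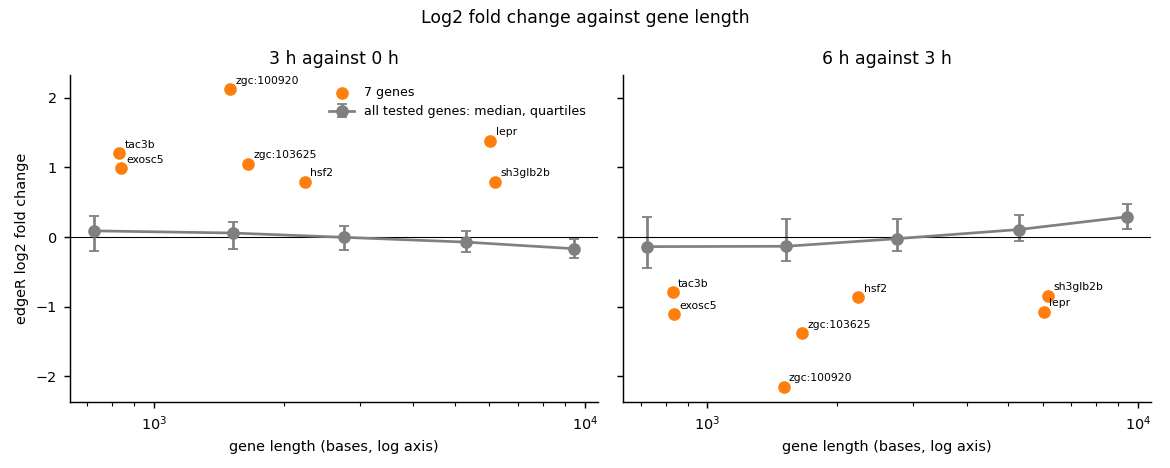
edgeR log2 fold change (vertical axes) against gene length in bases (log axis), at 3 h against 0 h and at 6 h against 3 h; grey shows the median and quartiles of all tested genes by length class, and orange shows the 7 genes. The grey medians slope from 0.09 to -0.17 and from -0.14 to 0.29, and the 7 genes lie outside the quartiles at short and long lengths alike, as their choice requires.

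hsf2 belongs to a list of heat-shock proteins and chaperones, of which 35 genes were tested. None was called at 3 h against 0 h, where 0.733% of all tested genes were called in either direction. At an adjusted p under 0.05, 7 of the 34 genes other than hsf2 were higher (11.3% of all tested genes were) and 2 lower (10.1% of all). The median without hsf2 was 0.11, against 0.00 for all tested genes. The paralog hsf1, the main heat-shock factor of stressed cells and named here after its values were seen, went the other way, with a mean of 19.1 CPM at 3 h and 28.7 CPM at 0 h and a log2 fold change of -0.49 ± 0.09 (SE, edgeR adjusted p = 0.00124). At 6 h against 3 h hsf1 was higher by 0.54 ± 0.09 (adjusted p = 0.000218), below the fold bound of a call. In the same contrast, 11 of the 34 genes other than hsf2 were lower and 3 higher at an adjusted p under 0.05. Their median was -0.09. Of all tested genes 20.1% were lower and 20.4% higher there.

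exosc5 was set beside 21 other tested genes of the RNA exosome and its cofactors, a list made after the 7 genes were known. At 3 h against 0 h these lay between -0.46 and 0.15 on the log2 scale. Below an adjusted p of 0.05, 0 of the 21 had a higher level and 2 a lower one. Of all tested genes 11.3% were higher and 10.1% lower at that threshold. At 6 h against 3 h, 11 of the 21 were lower at that threshold and 2 were higher, where 20.1% of all tested genes were lower and 20.4% higher. Their median was -0.17. At 6 h against 0 h, 12 of the 22 genes with exosc5 were lower at that threshold and 1 was higher, with a median of -0.28. Of all 18017 tested genes, 2686 were lower and 2546 higher there. exosc5 itself was at -0.11 ± 0.39 (SE, edgeR adjusted p = 0.86).

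**Figure D4:**
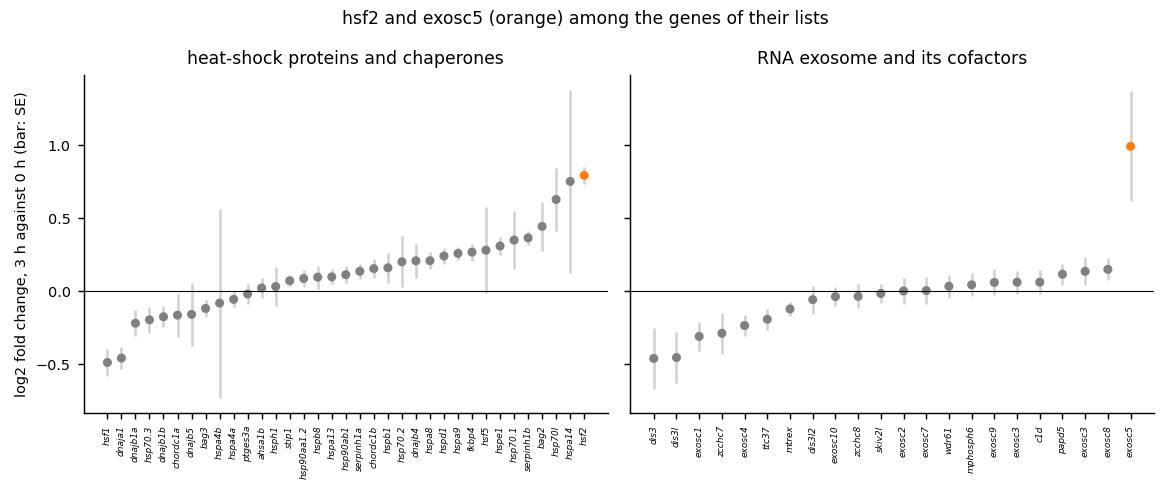
Log2 fold change at 3 h against 0 h (vertical axis, bars are standard errors) of each tested gene of the heat-shock and the RNA exosome lists, in rising order, with hsf2 and exosc5 in orange. exosc5 stands at 0.99 above its 21 companions at -0.46 to 0.15, as its choice by height at 3 h requires. hsf1 is at -0.49.

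Further lists were set beside lepr, sh3glb2b and tac3b. In a list of leptin and Jak-Stat genes, 28 were tested. Besides lepr, which was chosen on this contrast, none was called at 3 h against 0 h, where 0.733% of all tested genes were. The leptin gene lepa changed by 0.23 ± 0.17 (edgeR adjusted p = 0.36) and lepb by -0.19 ± 0.34 (adjusted p = 0.747). Of 18 tested endophilins and BAR-domain partners none was called at 3 h. At an adjusted p under 0.05, 4 of the other 17 were higher and 2 lower, and in the leptin list 4 of the other 27 were higher and 1 lower, beside the shares of all tested genes given above. The paralog sh3glb2a was at -0.27 ± 0.13 (adjusted p = 0.168). Of 13 tachykinin and receptor genes only tac3b and tac1 were tested, and no tachykinin receptor passed the filter on low counts. The medians at 3 h of the leptin and endophilin lists without the chosen genes were -0.08 and -0.17. These lists were also made after the 7 genes were known.

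Of the genes nearest to the 7, those beside exosc5 and around zgc:100920 are given, since their reads could mix with those of the gene. The gene bckdha, which starts 301 bases from exosc5 on the other strand, had 10.1 ± 0.13 CPM at 3 h and 11.7 ± 1.75 CPM at 0 h (SD, n = 3 each; log2 fold change -0.12 ± 0.16, edgeR adjusted p = 0.655). For ythdf1, around zgc:100920, the value at 3 h against 0 h was -0.14 ± 0.06 (adjusted p = 0.0983).

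The same PAC-2 libraries were also counted by the authors against transcripts assembled without a genome, which gave estimated counts for each Trinity gene (an assembled gene). This is another count of the same RNA and no independent evidence. The Trinity gene named HSF2 had 12.7 ± 1.00, 13.3 ± 0.75, 20.2 ± 0.70 and 12.3 ± 0.22 CPM at 0 h, 1 h, 3 h and 6 h (SD, n = 3 each), with 0.78 ± 0.06 at 3 h against 0 h and -0.88 ± 0.06 at 6 h against 3 h on the log2 scale, close to the genome values of 0.79 and -0.86. The Trinity gene named LEPR did not show the peak. It had 21.8, 20.6 and 23.2 CPM at 3 h, against 25.6, 23.6 and 22.0 CPM at 0 h, a log2 fold change of 0.00 ± 0.08 (edgeR adjusted p = 0.99). Its level was several times the 1.93 ± 0.32 CPM of lepr at 0 h in the genome table, so the tables do not measure the same set of reads for this gene. The cause was not tested.

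For the other genes the assembled names were chosen after the values were seen, and for exosc5 and sh3glb2b they are ambiguous. The Trinity gene that carries EXOS5 carries ODBA, the name of bckdha, first. It had 112 CPM at 0 h, against 13.0 CPM for exosc5 and 11.7 CPM for bckdha in the genome table. Its log2 fold change at 3 h against 0 h was -0.02 ± 0.04. NKAI4 was at -0.14 ± 0.09, the Trinity gene with SHLB1 and SHLB2 at 0.10 ± 0.06, and MTL26 at -0.09 ± 0.07. For exosc5 and sh3glb2b, whose Trinity genes carry a second gene name, the lack of a peak cannot be read as a value of the gene itself. NKAI4 and MTL26 carry no second gene name and showed no peak, but they are matched to zgc:100920 and zgc:103625 by name alone. Their levels at 0 h, 19.1 and 11.4 CPM, were several times those of zgc:100920 and zgc:103625 in the genome table, as for lepr. The tables thus do not measure the same set of reads for these genes, and the cause was not tested. Among the matched Trinity genes, only HSF2 had the peak at 3 h. No Trinity gene was matched to tac3b.

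In EPA cells, whose libraries the bounds did not use, the 2 Trinity genes that match a symbol were not called at 3 h against 0 h by edgeR or DESeq2, where 0.0908% of 23118 tested Trinity genes were called. HSF2 had 27.4, 27.2 and 28.7 CPM at 3 h, against 24.2, 23.9 and 24.15 CPM at 0 h, a log2 fold change of 0.21 ± 0.04 (SE, edgeR adjusted p = 0.0411), where 1.09% of Trinity genes were higher at an adjusted p under 0.05. All 3 h libraries lay above all 0 h libraries, as in 8.52% of tested Trinity genes. At 6 h it was higher than at 0 h by 0.28 ± 0.04 (adjusted p = 0.00351, where 4.35% of Trinity genes passed 0.05 upwards), and at 6 h against 3 h the log2 fold change was 0.07 ± 0.04 (adjusted p = 0.472). LEPR was at -0.005 ± 0.05 at 3 h against 0 h (adjusted p = 0.995). By the same kind of count LEPR was also flat in PAC-2 cells, at 0.00 ± 0.08 (edgeR adjusted p = 0.99). The EPA value thus cannot be set against the peak of lepr in the genome table. Whether the responses of the 2 cell lines differ was not tested, because the PAC-2 values chose the genes.

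**Figure D5:**
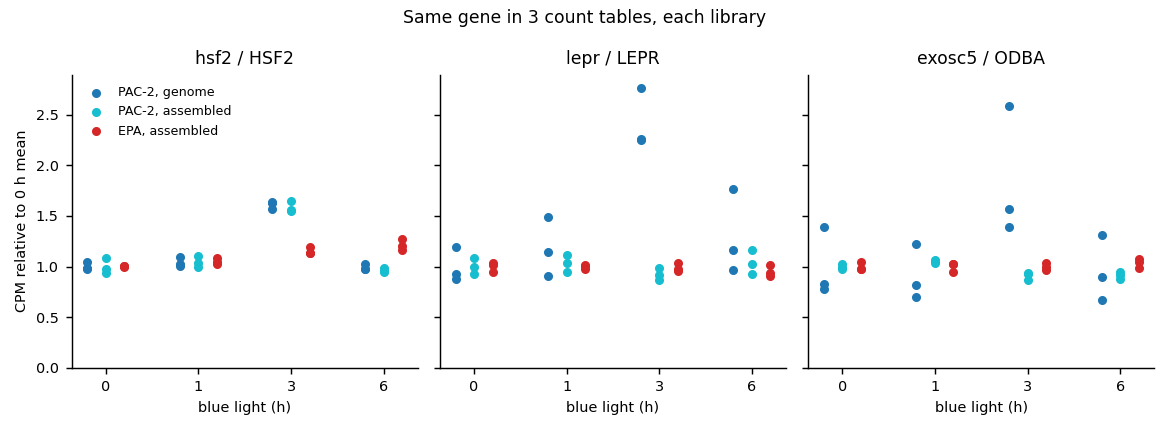
CPM relative to the 0 h mean of the same table (vertical axis) against hours of blue light for hsf2, lepr and the Trinity gene with ODBA and EXOS5 beside exosc5, in each library of the PAC-2 genome table, the PAC-2 assembled table and the EPA assembled table. The peak at 3 h appears in both PAC-2 tables for hsf2, at log2 fold changes of 0.79 and 0.78. For lepr it appears in the genome table but not for the assembled LEPR. The Trinity gene of the third panel carries the names of bckdha (ODBA) and exosc5 (EXOS5), and does not measure exosc5 alone.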

How the data were processed

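The authors' provider mapped the PAC-2 reads to GRCz11, and the deposited values are raw counts per gene. For the aligner, counter and strand setting, no source used here gives a name. FPKM for the same genes was also deposited by the authors and used for levels and for 1 alternative. For both lines they assembled transcripts with Trinity, excluded transcripts by a TPM cutoff, and deposited expected counts, which were rounded before testing. Counts were divided by library totals for CPM, and TPM for the markers was computed from counts and gene lengths. An edgeR fit per table held all 12 libraries (edgeR 4.0.16, TMM, filterByExpr, robust glmQLFit, 8 residual degrees of freedom), with DESeq2 1.42.0 as an alternative. Intervals use a t quantile at these degrees of freedom. The test was tested on simulated data. The genes, lists and tests were chosen with earlier results of these data known, and every gene found by the bounds was named. Promoter motifs were not analysed here.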

Additional observations from a re-analysis of the deposited data

How the results depend on the processing

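The number of genes within the bounds, 7 in all, was 18 with FPKM in place of CPM, 20 with TMM-normalized library sizes, 1 with a fold bound of 2, 35 with 1.3, 4 with a level bound of 5 CPM and 22 without separation of libraries, and 7 to 18 when single libraries were left out. With FPKM, TMM and no separation, all 7 genes stayed within the bounds. Leaving out 0 h replicate 1 removed sh3glb2b, 3 h replicate 2 or 6 h replicate 1 removed tac3b, and 3 h replicate 3 removed exosc5. The calls at 3 h against 0 h were 1 in all, 2 with only the compared times, 2 with DESeq2 and 0 to 2 without single libraries. At an adjusted p under 0.05 with no fold bound, 6 genes were higher, where 11.3% of all tested genes were. At 6 h against 3 h the calls were 1 in all, 2 with no filter on low counts, 2 with only the compared times, 3 with DESeq2 and 0 to 2 without single libraries. At an adjusted p under 0.05, 7 genes were lower, where 20.1% of all tested genes were. These 2 contrasts chose the genes, and nothing is read from the counts. Removing the trend with gene length shifted the fold changes only and kept the adjusted p, so that it is no separate test. At 1 h and at 6 h against 0 h the calls stayed at 0 under every alternative run. The EPA count was 0 in all and 1 (HSF2) at an adjusted p under 0.05. The replicate block, in a check of whether numbers pair the libraries, left 1 call at 3 h against 0 h and 1 at 6 h against 3 h, with lepr in place of zgc:103625 in the second. Deviations of same-numbered libraries had correlations of -0.09 to 0.16 over 18 pairs, and those of differently numbered libraries -0.14 to 0.08 over 36 pairs. Such correlations over all genes cannot exclude that the numbers pair some libraries. For exosc5 the replicate block gave an edgeR adjusted p of 0.0304 at 3 h against 0 h. The 2 last alternatives were chosen after seeing the data. Keeping the Period and cryptochrome genes gave 8, and further names for EPA counterparts gave 0 calls. Low counts limit tac3b, zgc:103625 and lepr, with 67, 79 and 128 counts over the 0 h libraries.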
